A study of Mus musculus with 24 samples.

Results

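The genes described here encode the core proteins of the spliceosome and the RNA-binding proteins that steer it: the snRNP proteins (names beginning Snrp), the subunits of splicing factor 3 (Sf3a and Sf3b), the serine and arginine rich SR proteins (Srsf, formerly Sfrs) and the hnRNP proteins (Hnrnp, formerly Hnrp). The rule that found them uses gene names alone and no measured value, although it was set with earlier results of these data known. Of 34787 gene names on the array, 52 genes carried by 95 probes met the name rule, and the probe with the highest mean over all arrays stands for its gene. The list holds 12 snRNP genes, 8 SF3 genes, 12 SR genes and 20 hnRNP genes. The SR count includes Pnisr, which met the rule through its name on the array, Sfrs18. All 52 passed the filter on dim probes, and 34 of them were well above background on all 24 arrays.

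The study profiled lymphoid cells sorted from thymic and fetal niches under a title that concerns the niches of blood progenitors. Each of 24 samples was hybridised to 1 Agilent single-colour array. The transgenic groups came from thymus with the Foxn1-deficient genotype (-/-): CD4 and CD8 double-positive thymocytes (tg DP, n = 4) and IgM-negative B cells (tg B, n = 2). Foxn1 is the transcription factor that thymic epithelium needs to support T cell development. The wt thymocytes came from Foxn1 heterozygous (+/-) thymus: stage 3 double-negative cells (DN3, n = 3), double-positive cells (wt DP, n = 3), CD4 single-positive cells (SP4, n = 3) and CD8 single-positive cells (SP8, n = 3). The fetal liver of wild-type mice, with no Foxn1 genotype in the labels, gave B cells with surface IgM (IgM-positive B, n = 3) and without it (IgM-negative B, n = 3). The labels name neither the transgenes, nor the cells that express them, nor the age of the mice. The SP4 group follows the sample titles, since the cell type given for these samples mentions SP8 too. The tg B and fetal liver B cells differ in organ as well as genotype, and these cannot be told apart. The labels do not tie replicates to different mice, and the p-values therefore cover only sample-to-sample spread, part or all of which may be technical.

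Splicing removes introns in steps carried out by small nuclear ribonucleoprotein particles. The Sm proteins (Snrpb, Snrpd1, Snrpd2, Snrpd3, Snrpe, Snrpf, Snrpg and the neuronally enriched Snrpn) form a ring around most of the small nuclear RNAs of these particles. Sf3a and Sf3b proteins hold the U2 particle on the branch point. SR proteins mostly promote the use of nearby exons, while hnRNP proteins coat the nascent transcript and often oppose them. In lymphocytes this machinery is best known for switching between isoforms of Cd45 (Ptprc), a switch in which Hnrnpll and Hnrnpl take part.

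Some of the probes lie in the conserved stretches that define these families, and they are shown because the values below are read through them. Positions follow the mm9 annotation of the array, and each sequence is the probe as the scanner files list it, 5′ to 3′. In the 3 Sm genes, capitals mark codons of a Sm motif, part of the fold that closes the ring. The Snrpd2 probe at chr7:19737898-19737957 (plus strand) and the Snrpd3 probe at chr10:74994982-74995041 (plus strand) hold the Sm2 signature, an arginine and a glycine codon after a leucine or isoleucine codon. The Snrpg probe at chr6:86326493-86326552 (plus strand) holds the Sm1 signature.
Snrpd2: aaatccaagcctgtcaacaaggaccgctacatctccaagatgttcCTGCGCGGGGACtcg
Snrpd3: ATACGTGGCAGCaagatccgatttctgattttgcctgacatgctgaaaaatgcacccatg
Snrpg: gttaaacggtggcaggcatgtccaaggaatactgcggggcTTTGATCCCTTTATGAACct

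In the SR genes, capitals mark pairs of adjacent arginine and serine codons in 1 open reading frame, counted without overlap so that a serine codon next to a pair can stay in lower case. This is the repeat that gives the family its name and is phosphorylated by SR protein kinases. The Srsf2 probe lies at chr11:116713385-116713444 (minus strand), the Srsf5 probe at chr12:82050878-82050937 (plus strand) and the Srsf11 probe at chr3:157675744-157675803 (minus strand).
Srsf2: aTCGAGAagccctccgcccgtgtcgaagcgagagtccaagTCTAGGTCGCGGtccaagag
Srsf5: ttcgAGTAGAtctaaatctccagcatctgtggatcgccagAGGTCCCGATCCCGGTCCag
Srsf11: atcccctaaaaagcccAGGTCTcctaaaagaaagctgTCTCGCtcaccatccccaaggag
Hnrnpa0 has 2 probes. The dimmer one, at chr13:58229242-58229301 (minus strand), covers RNP1, the conserved core of the RNA recognition motif, here in capitals.
Hnrnpa0: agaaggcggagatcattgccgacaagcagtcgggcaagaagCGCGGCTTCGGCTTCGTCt
Searched in every open frame of all 55681 probes of the array on the strand given, the Sm1 signature was met in 0.00539%, the Sm2 signature in 0.14%, RNP1 in 0.0126% and 2 or more arginine and serine pairs in 1.72%. An open frame alone says little, since 79.3% of the array's probes have one, and exon or untranslated positions of the probes were not used here.

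Values are log2 signals set relative to their own array, with 0 at the 75th percentile of its probes. Probes differ in how well they bind, so a level is compared between samples and never between genes. The share of probes well above background was 87.6% to 96.7% on 23 arrays and 80.7% on tg B 23. The arrays sat on 4 slides. Both tg B arrays shared slide 4 with all IgM-negative B arrays, while no wt DP array shared a slide with a SP4 or SP8 array. Marker genes of the labelled lineages moved weakly on these arrays. Of 10 T lineage markers, 8 had higher means in wt thymocytes than in fetal liver B cells, and 1 of them, Tcf7, passed the test (difference 4.29, SE 0.64, adjusted p = 0.0187), while the brightest Cd3e probe was lower in thymocytes by 0.25. Of 10 B lineage markers, 8 were lower in thymocytes and none passed, with a difference of -1.49 for Cd79a (adjusted p = 0.157). The mean level of the T lineage list spanned -1.08 to -0.02 on the wt thymocyte arrays, -1.80 to -1.38 on the tg B arrays and -1.75 to -1.06 on the fetal liver B arrays. The B lineage list spanned -0.95 to -0.50 on the tg B arrays, against -0.28 to 0.25 on the IgM-negative B arrays. The wt thymocyte arrays spanned -1.05 to -0.51 on this list, so the tg B arrays lay nearly wholly within their range. In sorted bulk cells, fewer cells of a type and less RNA per cell cannot be told apart.

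**Figure D1:**
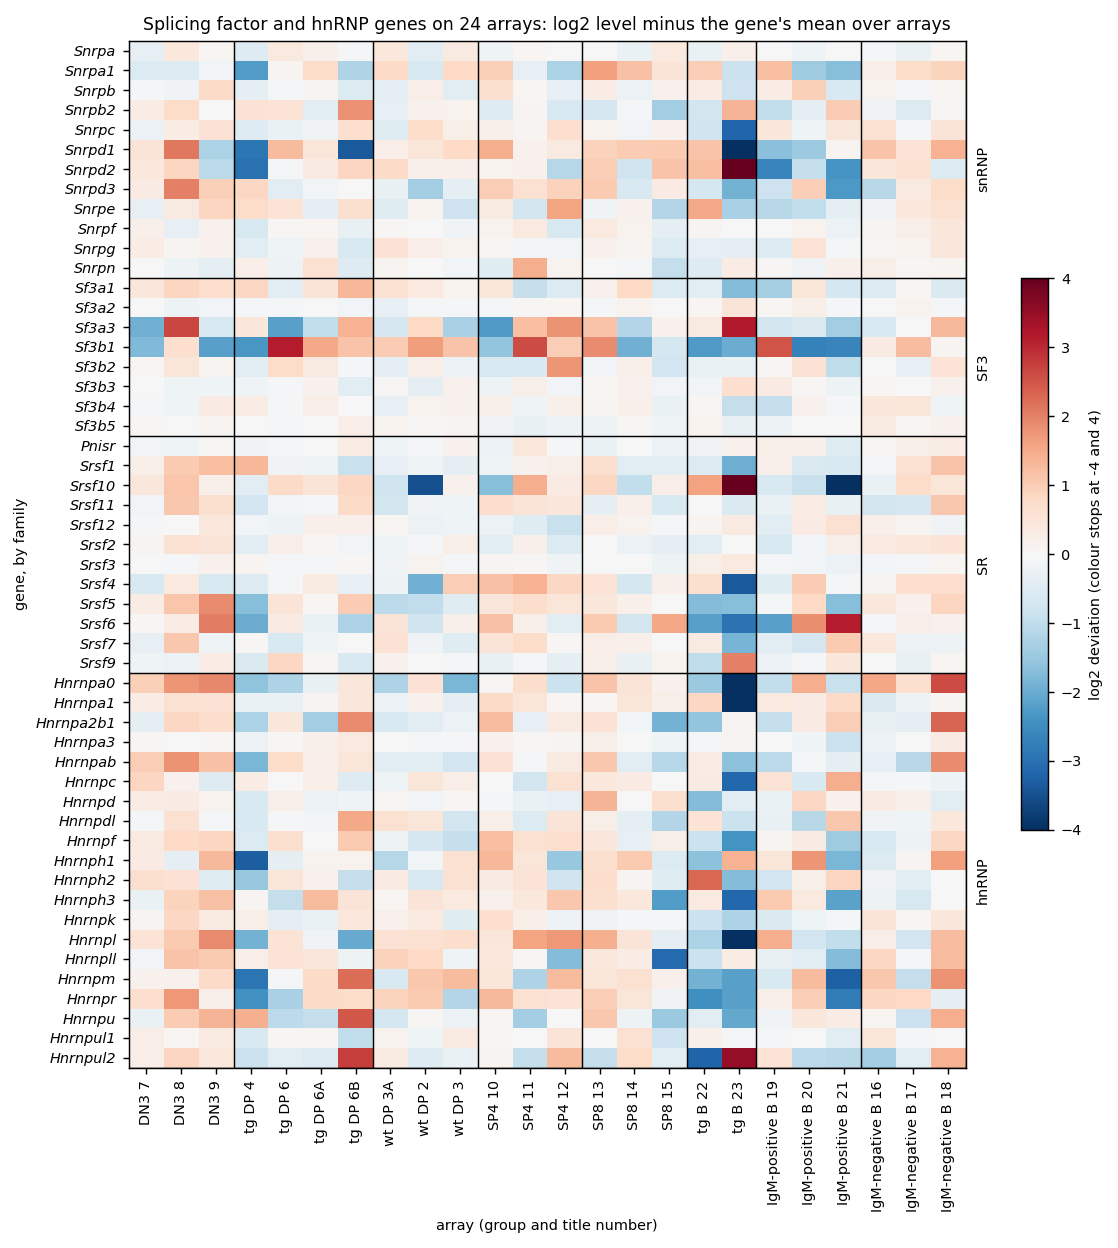
Heat map of 52 splicing factor and hnRNP genes (down, by family) on 24 arrays (across, by group); colour is the log2 level minus the gene's mean over all arrays. Blue cells, below the gene's mean, are most frequent on tg B 23, where 23 genes lay more than 1 below their own mean. A few genes such as Sf3a2, Srsf3 and Hnrnpa3 hardly vary on their brightest probe.

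No member passed an adjusted p of 0.05 in any of the 9 comparisons of groups or in the F-test over all 8 groups (limma with Benjamini-Hochberg adjustment over all genes). Few genes of the whole array passed either. The share of all genes called was 0.143% for tg B against IgM-negative B cells, 0.244% for wt thymocytes against fetal liver B cells, 0.00596% for the difference between both tg effects and 0.212% in the F-test. It was 0% for tg DP against wt DP, IgM-positive against IgM-negative B cells, wt DP against DN3, SP4 against wt DP, SP8 against wt DP and SP4 against SP8. The smallest adjusted p of a member was 0.0615, for Hnrnpa0 in tg B cells. The values below are therefore measured differences that did not pass the test.

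At an unadjusted p under 0.05 the members' counts can be read against the share of all genes. In tg B against IgM-negative B cells 15 of 52 members were below it, beside 17.2% of all genes. In wt DP against DN3 these were 6 of 52, beside 2.09% of all genes. The other comparisons gave 1 of 52 for tg DP against wt DP (3.31% of all genes), 5 for IgM-positive against IgM-negative B cells (7.1%), 3 for SP4 against wt DP (6.51%), 0 for SP8 against wt DP (2.16%) and 2 for SP4 against SP8 (5.13%). Wt thymocytes against fetal liver B cells gave 0 (13.4%), the difference between both tg effects 7 (9.68%) and the F-test 11 (13.7%). The members were noisier than most genes. Their median pooled SD within groups was 0.75, against 0.50 over all genes tested.

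**Figure D2:**
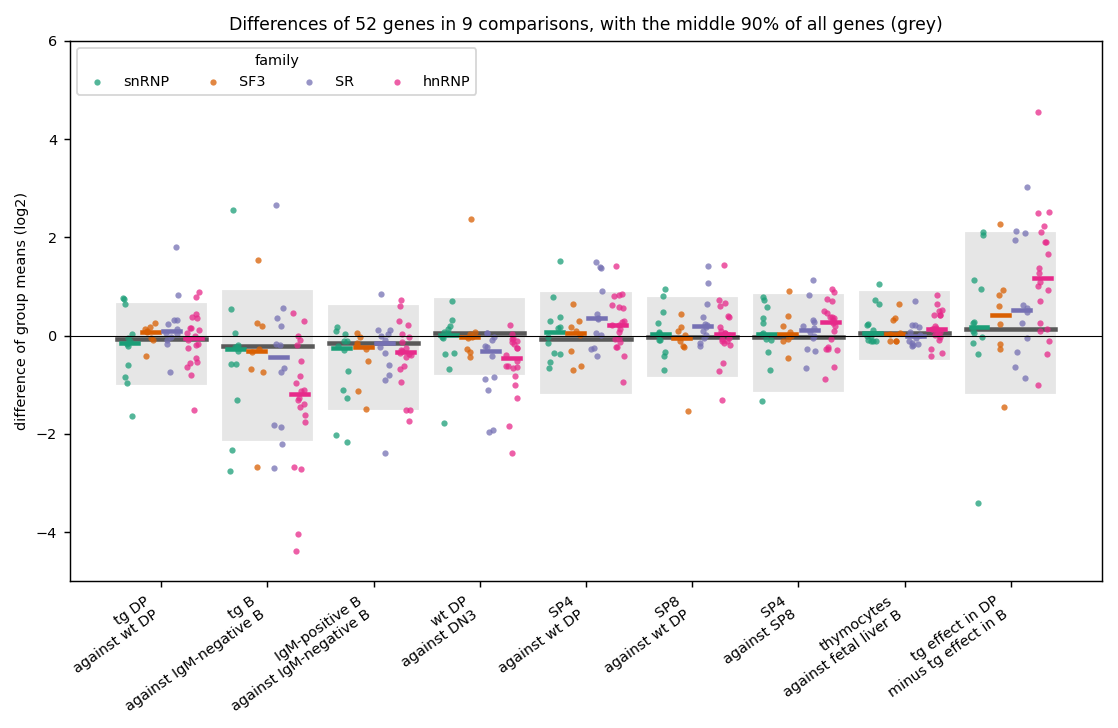
Difference of group means (log2) of each of 52 genes in 9 comparisons, coloured by family, with short bars at family medians; the grey box spans the middle 90% of all genes and its dark bar their median. The hnRNP bar lies lowest in tg B against IgM-negative B cells (-1.19) and also below the bar of all genes in wt DP against DN3 (-0.47).

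The widest differences came from the IgM-negative B cells of Foxn1-deficient thymus set against those of fetal liver. The tg B mean was lower for 40 of 52 members, beside 21256 of 33551 genes in all. The median difference was -0.62, beside -0.21 over all genes. Among members with a mean level of 0 or below, 28 of 36 were lower (77.8%), beside 70.0% of all genes at that level. Above 0, 12 of 16 members were lower (75%), beside 49.3% of all genes. By family, 9 of 12 snRNP genes (median -0.27), 5 of 8 SF3 genes (-0.31), 8 of 12 SR genes (-0.43) and 18 of 20 hnRNP genes (-1.19) were lower. Both tg B arrays lay below all 3 IgM-negative B arrays for 15 of 52 members, beside 24% of all genes, so the count of separated members is close to that of the array as a whole. When arrays were scaled to equal distributions instead, the median of all genes came to -0.04 and that of the members to -0.18, with 34 members and 15 hnRNP genes lower. Marker lists were counted too, scaled by the 75th percentile. In tg B cells 5 of 6 hepatocyte genes (median -1.30) and 5 of 7 erythroid genes (-0.54) were lower. So were 6 of 10 B lineage genes (-0.70), 7 of 10 T lineage genes (-0.46), 4 of 7 myeloid genes (-0.17) and 6 of 7 thymic epithelium genes (-0.21). None passed the test. The shares of the erythroid, B lineage, T lineage and myeloid lists lie near that of all genes. The mean level of the hepatocyte list was -4.54 to -3.25 on the tg B arrays and -3.26 to -2.27 on the IgM-negative B arrays, and the erythroid list stood at -2.11 to -1.54 against -1.54 to -1.35. Their part in the result was not tested.

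Among snRNP genes, Snrpd2, one of the Sm ring proteins, was high in tg B cells. Its level was 1.05 and 4.11 on the tg B arrays, against 0.30, 0.46 and -0.69 on the IgM-negative B arrays (difference 2.56, SE 1.01, adjusted p = 0.22). Both tg B arrays were above all IgM-negative B arrays, and tg B 23 was the highest of all 24. All 3 Snrpd2 probes pointed the same way, the other probes with differences of 1.40 and 1.37. The first of those other probes is placed on chromosome 10, while the gene lies on chromosome 7, so it may also read a near-identical copy. Snrpc, a U1 particle protein that helps recognise the 5′ splice site, was low in tg B cells. Its level was -3.61 and -5.99 in tg B cells, against -2.23, -2.88 and -2.30 in IgM-negative B cells (difference -2.33, SE 0.51, adjusted p = 0.0775). The groups did not overlap, but only 1 of the 2 tg B arrays was well above background, and this brightest Snrpc probe is placed on chromosome 5 and the gene on chromosome 17. The probe placed on chromosome 17 differed by -1.63.

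Among SR genes, Srsf1, the founding member that promotes exon inclusion and 5′ splice site choice, was low in tg B cells. It measured -0.59 and -2.01 in tg B cells, against -0.09, 0.56 and 1.09 in IgM-negative B cells (difference -1.82, SE 0.55, adjusted p = 0.152). The arrays of the groups did not overlap and all 3 Srsf1 probes were lower. Srsf5, an SR protein with paired RNA recognition motifs, read -2.10 and -2.06 in tg B cells, against 0.07, -0.19 and 0.49 in IgM-negative B cells. Both tg B arrays were far below the IgM-negative B arrays and nearly equal to each other. Srsf3, the smallest SR protein, lay at 3.65 and 3.80 in tg B cells, against 3.30, 3.32 and 3.49 in IgM-negative B cells (difference 0.36, SE 0.15, adjusted p = 0.235). The brightest probe thus put both tg B arrays highest, and another probe read on all 24 arrays differed by 1.37 in the same direction. The third Srsf3 probe, well above background on 16 arrays, differed by -4.36. Srsf10, a splicing repressor when dephosphorylated, measured -1.56 and 1.17 in tg B cells, against -3.44, -2.44 and -2.69 in IgM-negative B cells (difference 2.66, SE 1.20, adjusted p = 0.267). Its other probes gave differences of -0.63 and -1.87, so the direction of Srsf10 depends on the probe.

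Among hnRNP genes, Hnrnpa0, which binds AU-rich elements of cytokine transcripts, was low on both tg B arrays. Its level was -4.64 and -7.24 in tg B cells, against -1.62, -2.51 and -0.54 in IgM-negative B cells (difference -4.38, SE 0.90, adjusted p = 0.0615). The groups did not overlap on this probe, and tg B 23 was not well above background. The RNP1 probe printed above differed by only -0.51. Hnrnpk, a poly(C)-binding protein with KH domains, was lower on all 3 of its probes. The brightest read 0.51 and 0.16 in tg B cells, against 1.89, 1.42 and 1.85 in IgM-negative B cells (difference -1.39, SE 0.32, adjusted p = 0.0872), and the other probes differed by -1.93 and -3.50. The 2 tg B values were the lowest of all 24 arrays on the brightest probe. Hnrnpl, which represses exons through CA-rich sequences, was -2.40 and -7.45 in tg B cells, against -0.87, -1.91 and 0.11 in IgM-negative B cells (difference -4.03, SE 1.12, adjusted p = 0.131). The tg B arrays were low but far apart, and tg B 23 was again not well above background.

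For 4 genes neither tg B array was well above background, so at most a bound can be given. The bound sets the mean of the IgM-negative B arrays against a floor on each tg B array, its lowest signal well above background or the probe's own signal where that is higher, with no allowance for the spread between arrays. For Srsf6 and Hnrnpd the probe's own signal was the higher on both tg B arrays. Their values are therefore measured fold differences and not lower limits. Srsf6 measured 6.44-fold higher in IgM-negative B cells on its brightest probe (means -5.77 in tg B and -3.08 in IgM-negative B cells, adjusted p = 0.239). Its other probe went the opposite way, with means of -1.63 in tg B and -3.72 in IgM-negative B cells, so the direction of Srsf6 depends on the probe. Hnrnpr was at least 4.17-fold higher there (means -7.43 and -4.72, adjusted p = 0.202). Sf3b1 was at least 3.63-fold higher (means -7.59 and -4.92, adjusted p = 0.393). Hnrnpd measured 2.17-fold higher (means -5.77 and -4.65, adjusted p = 0.191). Hnrnpr and Sf3b1 were well above background on 2 of 3 IgM-negative B arrays.

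The 2 tg B arrays differed from each other over these genes. Relative to the IgM-negative B mean, the members' median was -0.18 on tg B 22 and -0.89 on tg B 23, and 32 and 38 members were lower, 24 of them on both. Across the 52 genes the differences of the 2 arrays ranked with a Spearman rho of 0.12, as a description of arrays that share the IgM-negative B mean. Hnrnpa1, a classic exon-skipping factor, was 2.38 on tg B 22 and -3.22 on tg B 23, against 0.99, 1.34 and 1.66 in IgM-negative B cells. One array was thus above and the other far below the same 3 arrays. On this brightest Hnrnpa1 probe, whose accessions list several genes, the difference of group means was -1.75. The other Hnrnpa1 probe, well above background on all 24 arrays, differed by 1.20, so the direction depends on the probe. Without tg B 22, leaving a lone array assumed to vary like the other groups, 14 members passed an adjusted p of 0.05, beside 17.3% of all genes, and without tg B 23 none did. Array tg B 23 stood apart over all genes too, and its part in these results was not tested beyond these values.

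**Figure D3:**
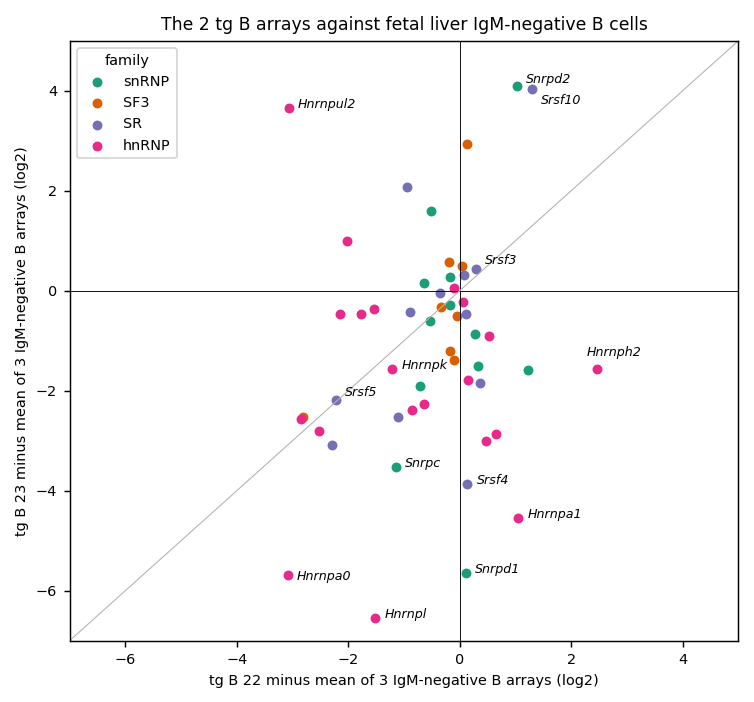
Each point is 1 of 52 genes, coloured by family: its log2 level on tg B 22 (across) and tg B 23 (up) minus the mean of the 3 IgM-negative B arrays; the diagonal marks equal differences. Hnrnpa0, Hnrnpl, Srsf5 and Hnrnpk lie low on both arrays and Snrpd2 and Srsf10 high on both, while Hnrnpa1, Snrpd1 and Srsf4 are low on tg B 23 only.

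**Figure D4:**
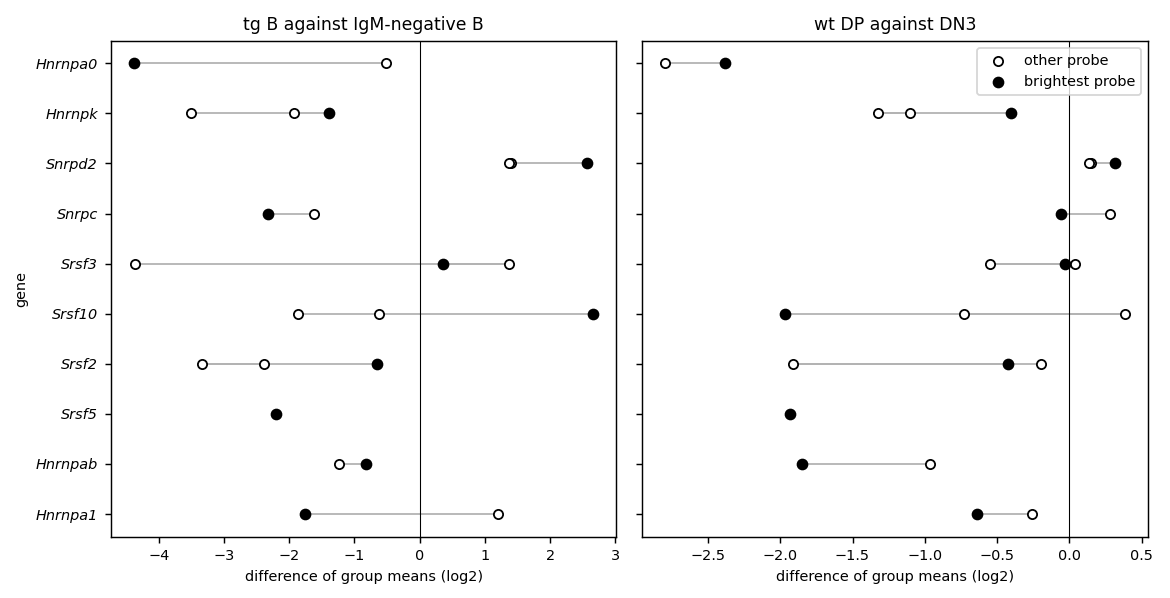
Differences (log2) of all probes of 10 genes in tg B against IgM-negative B cells (left) and wt DP against DN3 (right); filled circles are the brightest probe of the gene and open circles its other probes. Hnrnpk and Snrpd2 keep their direction over 3 probes in tg B cells, whereas Srsf3, Srsf10 and Hnrnpa1 have probes on both sides of 0.

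Of the 30 members with more than 1 probe, 18 had all probes on the same side of 0 in tg B against IgM-negative B cells and 12 did not. In wt DP against DN3 these were 17 and 13, and in tg DP against wt DP 15 and 15. A further source of doubt is shared sequence. The accessions of 8 member probes list several genes, among them the brightest probes of 3 members, and Snrpn cannot be told from Snurf, which is read from the same transcript.

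In the thymus the double-positive stage was set against the DN3 stage, at which the T cell receptor beta chain is tested and cells begin to divide. The wt DP mean was lower for 39 of 52 members, with a median difference of -0.24 beside 0.04 over all genes. This leaned on 2 families: 18 of 20 hnRNP genes (median -0.47) and 10 of 12 SR genes (-0.32) were lower, while 6 of 12 snRNP genes (0.01) and 5 of 8 SF3 genes (-0.04) were. All wt DP arrays lay below all DN3 arrays for 11 of 52 members, beside 5.24% of all genes. The count of lower hnRNP genes was 18 under every scaling tried and 17 with the mean of all probes. None of these genes passed the adjusted test.

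Srsf5 had the strongest statistic. Its level was -1.41, -1.34 and -0.83 in wt DP cells, against -0.08, 0.75 and 1.53 in DN3 cells (difference -1.93, SE 0.60, unadjusted p = 0.00466, adjusted p = 1). All wt DP arrays were below all DN3 arrays. The Sm ring gene Snrpd3 was -1.33, -2.42 and -1.44 in wt DP cells, against -0.70, 0.96 and -0.09 in DN3 cells (difference -1.78, SE 0.69, adjusted p = 1). The groups did not overlap, and DN3 7 was the lowest DN3 array. With the slide as a block, the Snrpd3 difference was -0.97.

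The hnRNP genes with the strongest statistics were Hnrnpa0, Hnrnpf and Hnrnpab. Hnrnpa0 was -4.41, -2.57 and -4.99 in wt DP cells, against -2.21, -1.38 and -1.22 in DN3 cells (difference -2.39, SE 0.81, adjusted p = 1). Its RNP1 probe differed by -2.80, so both probes put DP below DN3. Hnrnpf, which binds runs of G near splice sites, was 0.49, 0.01 and -0.22 in wt DP cells, against 1.04, 1.50 and 1.53 in DN3 cells (difference -1.26, SE 0.50, adjusted p = 1). Hnrnpab, a member of the A/B group, was 0.01, -0.01 and -0.34 in wt DP cells, against 1.39, 2.22 and 1.59 in DN3 cells (difference -1.85, SE 0.74, adjusted p = 1). Neither gene's groups overlapped, and the second probe of each was lower too, by -0.45 for Hnrnpf and -0.96 for Hnrnpab. In the opposite direction, Sf3b1, the branch-point subunit mutated in several blood cancers, was -4.44, -3.79 and -4.31 in wt DP cells, against -7.25, -4.79 and -7.64 in DN3 cells (difference 2.38, SE 1.45, adjusted p = 1). The groups did not overlap, but its probe was well above background on only 1 of 3 DN3 arrays, and the difference was 1.17 with the slide as a block.

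Slide moved with this comparison. All wt DP arrays and DN3 7 were on slide 2, and DN3 8 and DN3 9 on slide 3. Within slide 2, 3 wt DP arrays against the lone DN3 array, 32 of 52 members were lower and the median was -0.07. The members' median level was -1.37, -1.26 and -1.26 on the wt DP arrays, against -0.98 on DN3 7, -0.47 on DN3 8 and -0.50 on DN3 9. The wt DP arrays were the lowest and the DN3 arrays of slide 3 the highest. Of 10 T lineage markers 8 were lower in wt DP cells as well (median -0.73), with list means of -0.91 to -0.89 on the wt DP arrays and -0.50 to -0.04 on the DN3 arrays. The part of slide and of these genes in the result was not tested.

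**Figure D5:**
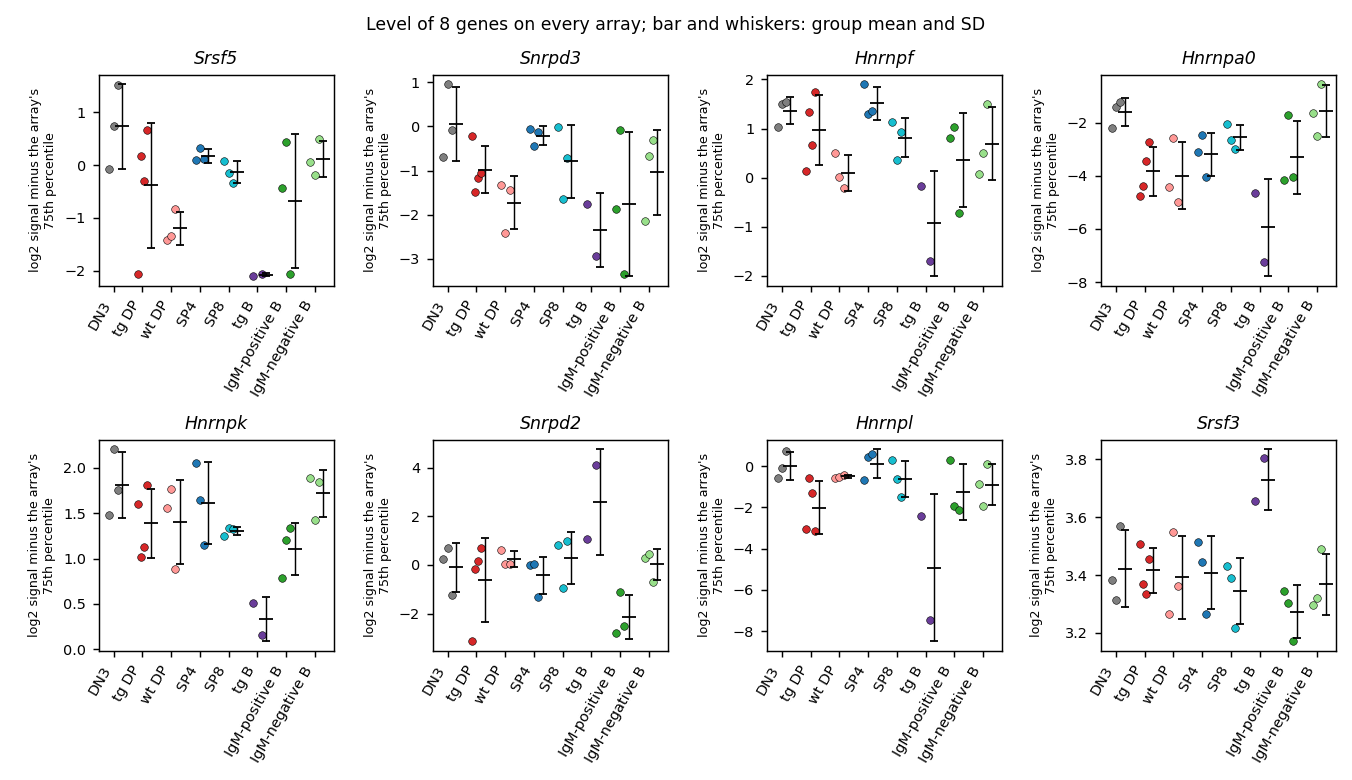
Scaled log2 level (0 is the 75th percentile of an array) of 8 genes on each of 24 arrays by group; points are arrays, bars and whiskers the group mean and SD. Srsf5, Snrpd3, Hnrnpf and Hnrnpa0 are lower in wt DP than in DN3, the tg B arrays are the lowest for Hnrnpk and the highest for Srsf3, and the vertical scale differs between panels.

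From the double-positive to the single-positive stages the same wt DP arrays served as the reference, so these differences and those from DN3 are not independent. No SP4 or SP8 array shared a slide with a wt DP array, so no comparison within a slide was possible. Slide-blocked values for these steps rest on arrays of other groups that link the slides. In SP4 cells 33 of 52 members had higher means than in wt DP cells (median 0.16, beside -0.07 over all genes), among them 9 of 12 SR genes (median 0.35) and 13 of 20 hnRNP genes (0.21). All SP4 arrays lay above all wt DP arrays for 7 of 52 members, beside 5.47% of all genes. Hnrnpf was 1.90, 1.29 and 1.35 in SP4 cells, against 0.49, 0.01 and -0.22 in wt DP cells (difference 1.42, SE 0.50, adjusted p = 0.618). Srsf5 was 0.09, 0.33 and 0.12 in SP4 cells, against -1.41, -1.34 and -0.83 in wt DP cells (difference 1.38, SE 0.60, adjusted p = 0.737). Every SP4 array was above every wt DP array for both genes.

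Snrpd3 averaged -0.21 ± 0.21 in SP4 cells and -1.73 ± 0.60 in wt DP cells (SD, n = 3 each, difference 1.52, adjusted p = 0.743), and with the slide as a block the difference was 0.40. Srsf11, an SR-related protein, averaged 1.01 ± 0.13 in SP4 cells and 0.10 ± 0.34 in wt DP cells (difference 0.91, adjusted p = 0.78), but its 2 other probes were lower in SP4 cells. Hnrnpab averaged 0.71 ± 0.32 in SP4 cells and -0.11 ± 0.20 in wt DP cells (difference 0.82, adjusted p = 0.924), with a slide-blocked difference of 1.55. The SP4 and wt DP arrays did not overlap for any of these genes. Lower in every SP4 array than in every wt DP array were Sf3b5, the smallest SF3B subunit (difference -0.31, adjusted p = 0.767), the Sm genes Snrpg (-0.38, adjusted p = 0.871) and Snrpd2 (-0.66, adjusted p = 0.968) and the SR gene Srsf9 (-0.27, adjusted p = 0.977). With the slide as a block the differences were -0.18 for Snrpg, -0.02 for Srsf9 and 1.27 for Snrpd2, so the direction of Snrpd2 is not settled. The share of all genes lower on every SP4 array is not given here, and 19490 of 33550 genes had a lower mean in SP4 cells.

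In SP8 cells 31 of 52 members were higher than in wt DP cells (median 0.05, beside -0.03 over all genes), 9 of them among 12 SR genes. Srsf5 was 0.08, -0.15 and -0.33 in SP8 cells, against -1.41, -1.34 and -0.83 in wt DP cells (difference 1.06, SE 0.60, adjusted p = 1). Snrpd1, a partner of Snrpd2 in the Sm ring, was -1.74, -1.67 and -1.63 in SP8 cells, against -2.41, -2.18 and -1.89 in wt DP cells (difference 0.48, SE 1.26, adjusted p = 1). Neither pair of groups overlapped. These 2 of 52 members were the only ones higher on every SP8 array, and the share of all genes is not given here. The SE of Snrpd1 is large because it comes from all 8 groups. Its difference was 1.09 with the slide as a block, which again rests on arrays of other groups.

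Between the single-positive stages, 31 of 52 members were higher in SP4 than in SP8 cells (median 0.12, beside -0.03 over all genes). Srsf12, an SR protein described as an antagonist of other SR proteins, was -0.96, -1.22 and -1.61 in SP4 cells, against -0.45, -0.58 and -0.80 in SP8 cells (difference -0.65, SE 0.24, adjusted p = 0.843). All SP4 values were below all SP8 values and both Srsf12 probes were lower. Hnrnpd, known as AUF1 for its binding to AU-rich elements, averaged -4.90 ± 0.12 in SP4 cells and -4.02 ± 0.68 in SP8 cells (difference -0.89, adjusted p = 0.915). In the other direction and again without overlap, SP4 cells were above SP8 cells for Srsf4 by 1.12 (adjusted p = 1), Srsf11 by 0.82 (adjusted p = 0.979), Hnrnpf by 0.70 (adjusted p = 1) and Srsf5 by 0.31 (adjusted p = 1). Of 52 members, 4 were higher and 2 lower on every SP4 array than on every SP8 array. The share of all genes that separate in this way is not given here. With the slide as a block the Srsf5 difference was 0.66. The other probe of Hnrnpf differed by -0.18 and those of Srsf11 by -0.23 and -1.11, against the direction of their brightest probes.

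Fetal liver B cells that had reached surface IgM were set against those that had not. IgM-positive B cells had the lower mean for 39 of 52 members, beside 22267 of 33549 genes in all (median -0.28, beside -0.15 over all genes). The count of members was 28 when arrays were scaled to equal distributions, when 10 of 20 hnRNP genes were lower, so the lean depends on the scaling. All IgM-positive arrays lay below all IgM-negative arrays for 8 of 52 members, beside 11.5% of all genes. Snrpd2 was -2.80, -1.11 and -2.51 in IgM-positive B cells, against 0.30, 0.46 and -0.69 in IgM-negative B cells (difference -2.16, SE 0.91, adjusted p = 0.647). The groups did not overlap, and the other Snrpd2 probes differed by -1.17 and -1.43. Srsf2, an SR protein that helps define 3′ splice sites, was -1.11, -0.60 and -0.25 in IgM-positive B cells, against -0.12, -0.07 and 0.03 in IgM-negative B cells (difference -0.60, SE 0.25, adjusted p = 0.643). Its groups did not overlap either, and all 3 probes were lower, while the slide-blocked difference was -0.37.

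Hnrnpk averaged 1.11 ± 0.29 in IgM-positive B cells and 1.72 ± 0.26 in IgM-negative B cells (SD, n = 3 each, difference -0.61, adjusted p = 0.69), lower on 3 of 3 probes. Srsf10 averaged -5.26 ± 2.33 in IgM-positive B cells and -2.86 ± 0.52 in IgM-negative B cells (difference -2.40, adjusted p = 0.677), with IgM-positive B 21 at -7.95. Its probe was well above background on 2 of 3 IgM-positive arrays, and another Srsf10 probe differed by 0.22, so neither size nor direction is settled. Hnrnpll, an RNA-binding protein that switches Cd45 isoforms in lymphocytes, was -4.55, -4.73 and -6.0 in IgM-positive B cells, against -3.42, -4.32 and -3.02 in IgM-negative B cells (difference -1.51, SE 0.77, adjusted p = 0.721). The groups did not overlap for these 3 genes, and Hnrnpll too was well above background on 2 of 3 IgM-positive arrays. Hnrnpa1 alone was higher in all IgM-positive arrays, at 1.93, 1.89 and 2.31, against 0.99, 1.34 and 1.66 in IgM-negative B cells (difference 0.71, SE 0.80, adjusted p = 0.884), while its other probe differed by -1.37. Sf3a3, a SF3A subunit, was not well above background on any IgM-positive array. It measured 2.19-fold higher in IgM-negative B cells (means -5.83 in IgM-positive and -4.70 in IgM-negative B cells, adjusted p = 0.879). The arrays of the 2 groups overlapped, and the value is not a lower limit.

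Foxn1-deficient and heterozygous DP thymocytes showed no lean in either direction. The tg DP mean was higher for 26 members and lower for 26 (median 0.00, beside -0.07 over all genes). Hnrnpl was -3.04, -0.58, -1.29 and -3.15 in tg DP cells, against -0.55, -0.51 and -0.42 in wt DP cells (difference -1.52, SE 0.94, adjusted p = 1). All 4 tg DP arrays were below the wt DP arrays, 1 of them by very little. Snrpg, the member with the smallest unadjusted p here (0.0224), averaged 0.63 ± 0.34 in tg DP cells (n = 4) and 1.22 ± 0.23 in wt DP cells (n = 3), with overlapping arrays. Among 3 tg DP and 3 wt DP arrays of slide 2, 29 members were higher and 23 lower in tg DP cells.

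The tg effect in DP cells and that in B cells were compared as a difference of differences, each against its own reference. It was positive for 38 of 52 members (median 0.61, beside 0.13 over all genes), for 17 of 20 hnRNP genes among them, meaning that tg B cells stood lower against fetal liver than tg DP cells against wt DP. The largest statistics were those of Hnrnpa0 (4.54, SE 1.17, adjusted p = 0.305), Srsf5 (3.02, SE 0.87, adjusted p = 0.331), Hnrnpf (2.50, SE 0.73, adjusted p = 0.331), Hnrnpk (1.37, SE 0.41, adjusted p = 0.336) and Snrpc (2.12, SE 0.67, adjusted p = 0.351). On the negative side were Snrpd2 (-3.40, SE 1.32, adjusted p = 0.445), Srsf3 (-0.34, SE 0.19, adjusted p = 0.58), Hnrnph2 (-1.0, SE 1.12, adjusted p = 0.789), Srsf9 (-0.65, SE 0.75, adjusted p = 0.797) and Sf3b3 (-0.28, SE 0.32, adjusted p = 0.788). Without tg B 22, 10 members passed, beside 9.48% of all genes, and without tg B 23 none did.

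Wt thymocytes, as the mean of 4 groups, did not separate from fetal liver B cells, as the mean of 2. The thymocyte mean was higher for 32 of 52 members with a median of 0.07, beside 0.06 over all genes, and differences ran from -0.41 to 1.05. No member was below an unadjusted p of 0.05, although 13.4% of all genes were, and the smallest adjusted p was 0.376. Under the other scalings 26 or 27 members were lower in thymocytes.

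Across all 8 groups tg B had the lowest mean for 27 of 52 members and the highest for 9, while DN3 was the highest for 15 and IgM-negative B for 10. Leaving tg B out, DN3 was highest for 18 members and lowest for 1, while tg DP and IgM-positive B were each lowest for 14. The smallest F-test p of a member was that of Hnrnpa0 (unadjusted p = 0.00227, adjusted p = 0.123), followed by Hnrnpk (adjusted p = 0.187), Hnrnpl (0.192), Snrpc (0.195), Hnrnpf (0.206), Srsf5 (0.228), Snrpd2 (0.258) and Hnrnpd (0.268). The highest mean stood in a thymocyte group for Hnrnpk, Srsf5 (DN3), Hnrnpl, Hnrnpf (SP4) and Hnrnpd (SP8), in IgM-negative B cells for Hnrnpa0 and Snrpc, and in tg B cells for Snrpd2. Hnrnpk, for example, averaged 1.81 ± 0.37 in DN3, 1.39 ± 0.38 in tg DP, 1.40 ± 0.46 in wt DP, 1.61 ± 0.45 in SP4, 1.30 ± 0.05 in SP8, 0.33 ± 0.25 in tg B, 1.11 ± 0.29 in IgM-positive B and 1.72 ± 0.26 in IgM-negative B cells. The 7 means other than tg B lie between 1.11 and 1.81, with SDs up to 0.46, and both tg B arrays lie below all others.

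Among the best-known snRNP and SF3 genes, most group means lay close together. Snrpa, the U1 protein that binds a stem-loop of U1 RNA, ranged over groups only between 2.73 ± 0.18 in IgM-negative B and 2.94 ± 0.46 in wt DP cells. Snrpb, the SmB protein, ranged between -1.33 ± 0.81 in tg B and -0.85 ± 0.78 in IgM-positive B cells, and Snrpn, its imprinted relative, between -1.89 ± 0.52 in SP8 and -1.18 ± 0.99 in SP4 cells. For Snrpa and Snrpb the lowest and highest means differ by less than the larger of their SDs. Sf3b1 was well above background on 13 of 24 arrays, among them all 3 wt DP arrays (-4.18 ± 0.35) and neither tg B array, so its range over groups has no measured lower end.

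Of the SR genes, Srsf3 varied little on its brightest probe, between 3.27 ± 0.09 in IgM-positive B and 3.73 ± 0.10 in tg B cells. Srsf2 ranged between -0.77 ± 0.42 in SP4 and -0.05 ± 0.08 in IgM-negative B cells, with DN3 next to the top at -0.09 ± 0.27. Srsf7, an SR protein with a zinc knuckle, ranged between -3.64 ± 1.56 in tg B and -2.46 ± 0.36 in SP4 cells. Srsf1 ranged between -1.30 ± 1.0 in tg B and 0.78 ± 0.52 in DN3 cells, and Srsf5 between -2.08 ± 0.02 in tg B and 0.73 ± 0.80 in DN3 cells. For both, DN3 and the IgM-negative B cells overlapped at the upper end.

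Of the hnRNP genes, Hnrnpa1 lay between 1.33 ± 0.34 in IgM-negative B and 2.05 ± 0.16 in DN3 cells in 7 groups. It stood at -0.42 ± 3.96 in tg B, whose 2 arrays disagree, while its other probe was higher in tg B than in IgM-negative B cells. Hnrnpc, a core protein of nascent transcripts, likewise lay between 0.28 ± 0.07 in IgM-negative B and 0.88 ± 1.03 in IgM-positive B cells outside tg B (-0.99 ± 2.45). The other Hnrnpc probe, nearly as bright and well above background on 24 arrays, averaged 0.18 in tg B and 0.46 in IgM-negative B cells. Its lowest mean was in SP8 cells (-0.09), so the low tg B level of Hnrnpc depends on the probe. Hnrnpa2b1, which reads modified RNA, ranged between -5.62 ± 1.19 in tg B and -4.31 ± 1.55 in IgM-negative B cells. Hnrnpu, a nuclear scaffold protein, ranged between -2.47 ± 1.15 in tg B and -0.54 ± 0.85 in DN3 cells, and Hnrnpll between -5.09 ± 0.79 in IgM-positive B and -3.57 ± 0.70 in DN3 cells. Hnrnpf, one of the genes with a small F-test p, lay between -0.93 ± 1.07 in tg B and 1.52 ± 0.34 in SP4 cells.

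The remaining splicing genes of the array were counted from 2 wider lists. Of 72 other spliceosome genes 71 were measured, and of 46 other splicing regulators and SR kinases 44, and none passed the adjusted test in any comparison. In tg B against IgM-negative B cells 44 of 71 spliceosome genes and 30 of 44 regulators were lower (medians -0.19 and -0.34, beside -0.21 over all genes). In wt DP against DN3 these were 49 of 71 and 29 of 44 (medians -0.06 and -0.06, beside 0.04). The hnRNP medians in these comparisons, -1.19 and -0.47, were lower than either, a description of lists that were not tested against each other.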

How the data were processed

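The 24 arrays are single-colour (Cy3) Agilent arrays of mouse cells sorted by flow cytometry, whose lysed RNA was amplified as cDNA before labelling, per the labels' protocols. The deposited scanner files hold intensity values per spot, background-subtracted by Feature Extraction 10.7.3.1, per the file headers. The authors' deposited value table holds log2 values of the same arrays and served as an alternative. Control spots and 248 spots with a non-uniform outlier mark were left out, spots of a probe were averaged, and values are log2 intensities minus each array's 75th percentile. Genes entered the test if all arrays of 1 or more groups had a probe well above background, which left 33553 genes, each read by its brightest probe. Probes were named through RefSeq accessions where these matched.

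Group means were fitted over all 24 arrays with limma 3.58.1 in R 4.3.3, sharing 1 estimate of the spread, and p-values were adjusted by Benjamini-Hochberg over all genes. On simulated data of 33553 genes, changes were added to the tg DP arrays, which were tested against the wt DP arrays. Each gene had normal noise of 1 spread on all arrays. There 94 of 100 genes changed by 4 on the log2 scale and 67 of 100 changed by 2 were recovered, with 11 false calls. Recovery in the other comparisons, among them that of the tg B arrays, was not simulated. Figures were drawn with matplotlib 3.10.9. Named genes are, per comparison, up to 5 members in each direction with the most extreme moderated t whose arrays do not overlap (overlap was not asked for the difference between both tg effects), the 8 with the smallest F-test p and a fixed set of well-known members. Where no share of all genes stands beside non-overlapping arrays, that separation was not compared with the array as a whole. Bounds and fold differences for dim probes, Srsf5 and Hnrnpa1 in tg B cells and Snrpg in tg DP cells were added after their values were seen. The members and lists were chosen with earlier results of these data known. Alternatives were other scalings, the authors' values, the mean of all probes, the slide as a block, leaving out arrays and averaging samples that share a title number. Samples numbered 3 and 3A, or 6, 6A and 6B, may be repeats of 1 source. The SD of gene-wise differences was 0.80 between wt DP 3A and 3, against 0.79 and 0.84 for the other wt DP pairs, and 0.67, 1.05 and 0.98 among tg DP 6, 6A and 6B, against 1.20, 1.12 and 1.33 for their pairs with tg DP 4. The tg DP arrays sharing a number were thus closer to each other, and whether they are repeats is not known. They were treated as separate samples. The number of arrays limits the precision.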

Additional observations from a re-analysis of the deposited data

How the results depend on the processing

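No member passed the threshold in any comparison under the alternatives that kept all arrays, nor without the 3 arrays that stand apart (tg B 23, IgM-positive B 21 and tg DP 4). Leaving out each replicate in turn gave 0 to 14 members past the threshold in tg B against IgM-negative B cells, 0 to 10 for the difference between both tg effects and 0 to 6 in the F-test. The highest counts came without tg B 22, and 1 member, Hnrnpa0, passed in tg B cells without IgM-positive B 20 (adjusted p = 0.049). The members' median in tg B against IgM-negative B cells was -0.32 when arrays were scaled to their medians, -0.18 by quantiles, -0.17 by normexp followed by quantiles, -0.18 in the authors' values and -0.18 without the 3 arrays, and -0.89 to -0.18 without single arrays. The median difference between both tg effects was 0.37, 0.30, 0.21 and 0.30 under the same 4 scalings, and 0.29 to 0.82 without single arrays. Direction turned with the mean of all probes for Srsf3 in tg B cells (-0.88), Srsf3 in the difference between both tg effects (0.75), Hnrnpa1 in IgM-positive B cells (-0.33) and Srsf11 in SP4 against SP8 (-0.17). It turned with the slide as a block for Snrpd2 in SP4 against wt DP (1.27), and without the 3 arrays for Sf3b3 (0.11) and Srsf9 (1.04) in the difference between both tg effects. Without single arrays that difference ran from -0.67 to 0.10 for Sf3b3, from -3.02 to 1.01 for Hnrnph2 and from -2.17 to 0.87 for Srsf9. The causes were not tested. No paired analysis was possible because the groups compared share no replicate number. Dim probes, 4 of them without any tg B array well above background among the genes named, allow at most bounds.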
